A study of Mus musculus with 2 samples.

Results

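Transcripts of 8 genes of the JAK-STAT pathway were followed in washed platelets of C57BL/6 mice with and without Smad4. The genes were the Janus kinases Jak1, Jak2 and Tyk2, the transcription factors Stat3, Stat5a and Stat5b, and the inhibitors Cish and Sh2b3, out of 18193 genes annotated on the array. Members were found by symbol, as all probe sets, the groups of short probes that read 1 transcript, whose only annotated gene is on this list. This gave 18 probe sets out of 34945 with 1 gene symbol. Smad4 f/f mice carry a Smad4 gene flanked by loxP sites. Smad4 −/− mice also carry a Cre recombinase driven by the promoter of platelet factor 4, which removes Smad4 in megakaryocytes and platelets, and the labels give no age. Each genotype had 6 mice and 1 array, an Affymetrix 3' expression array. The labels do not say if RNA from several mice was combined on an array. There are no replicates, so no difference below has a test, an error or a p-value.

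Cytokines drive the growth of megakaryocytes, the cells that shed platelets. Many cytokine receptors have no kinase domain and rely on Janus kinases, which phosphorylate the receptors, STAT proteins, and the adaptors that lead to the RAS-MAPK and PI3K routes. SH2B3 (LNK) binds JAK2 and damps its signal, and CISH is made in response to STAT5 and closes a feedback loop. Platelets have no nucleus and carry transcripts made in the megakaryocyte.

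Signals are log2 values as the authors scaled them. A signal floor was set at the 60th percentile (7.18 in log2, 145 in linear units), and lower values were raised to it before a ratio was taken. A probe set counted as measured if either array reached the floor, and every ratio is Smad4 −/− over Smad4 f/f. Of the 18 member probe sets, 16 were measured, 15 of them above the floor on both arrays, and 2 lay below it on both. Each of the 8 genes had at least 1 measured probe set. Levels of different probe sets depend on their probes, so the levels of the 8 genes are not ranked. Where a pair of signals is given, Smad4 f/f comes first.

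The largest differences among the 8 genes were in Stat3, which was higher in Smad4 −/−, and in Jak2, which was lower. Stat3 was the only member past 2-fold, 2.19-fold higher by its strongest probe set. Both Jak2 probe sets were lower, by 1.60-fold and 1.66-fold, short of 2-fold. Jak1, Stat5a, Stat5b, Cish and Sh2b3 had gene ratios between −0.15 and 0.18 on the log2 scale, and Tyk2 one of −0.32. Of the 16 measured probe sets, 2 were at least 2-fold higher, beside 3.24% of all 21377 measured probe sets, and 0 were at least 2-fold lower, beside 3.51% (6.75% in either direction). Both of those that were higher belong to Stat3. The median log2 ratio over the 16 was −0.02, beside −0.02 over all measured probe sets.

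**Figure D1:**
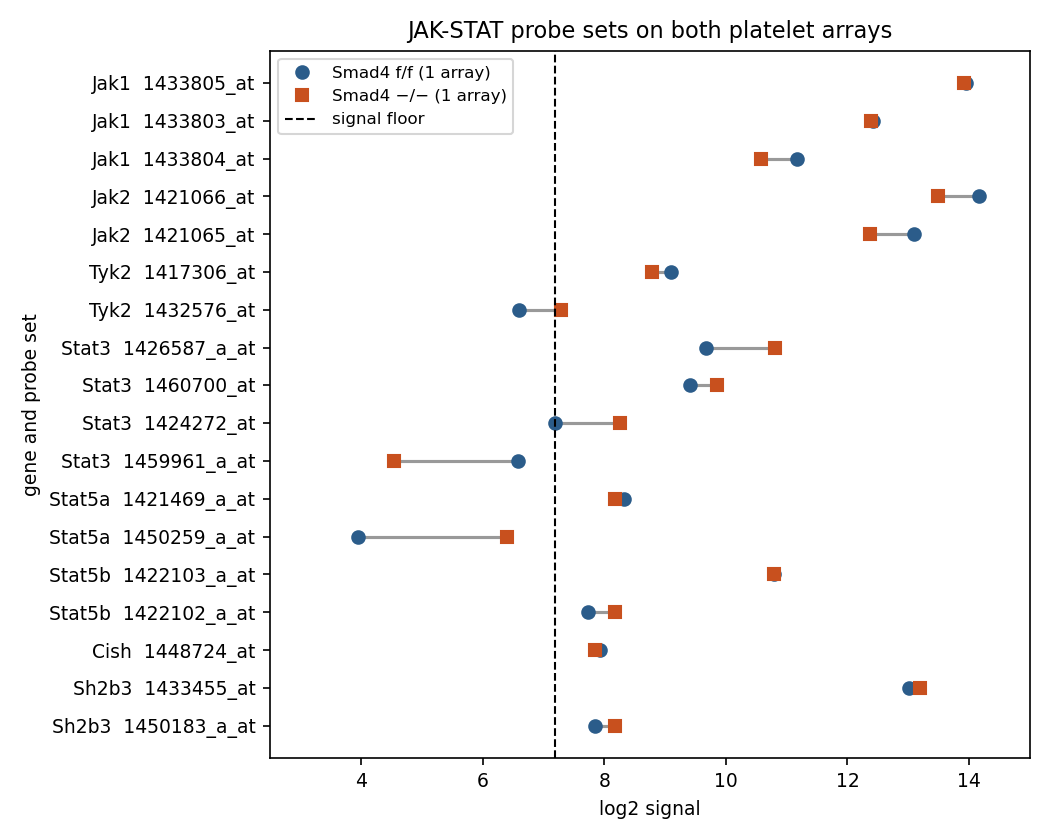
Log2 signal (x axis) of each of the 18 probe sets of the 8 genes (y axis), with a circle for the Smad4 f/f array, a square for the Smad4 −/− array and a dashed line at the signal floor of 7.18. The squares of the 3 measured Stat3 probe sets lie to the right of the circles and those of both Jak2 probe sets to the left, while 1 probe set each of Stat3 and Stat5a lies below the floor on both arrays.

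Other differences between the arrays stand beside these. Smad4 itself read nearly alike on both, with log2 ratios of −0.13 to −0.09 over 3 probe sets. Their place relative to the deleted exons was not analysed here, so they do not check the deletion, and the direction of every ratio rests on the labels. The 12 measured platelet markers, Pf4 and Itga2b among them, were all within 2-fold (median 0.08). JAKs and STATs are also made in blood cells outside the platelet lineage, and markers of some other cells were higher in Smad4 −/−. Summed signals of a marker list follow its brightest probe sets and are given with the genes that carry them. The 7 measured erythroid markers summed to 7537 in Smad4 f/f and 19448 in Smad4 −/−, mostly through Fech (4551 and 13904), with 3 of 7 at least 2-fold higher. Besides Fech, those past 2-fold were Alas2 and Slc4a1, with log2 ratios of 1.26 and 1.24. Tfrc and Klf1 had log2 ratios of −0.61 and −0.31, and Rhag lay below the floor on both arrays. The 7 T and NK cell markers summed to 7478 and 15994, mostly through Cd28 (4685 and 12825). Cd3d had a log2 ratio of −0.98 (356 and 181), and Cd3e, Cd3g, Cd4, Cd8b1 and Gzmb lay below the floor on both. The 5 endothelial markers summed to 1956 and 3749, a difference mostly through Flt1 (below the floor and 1361), while Robo4 had a log2 ratio of −0.74. The 4 measured Flt1 probe sets had log2 ratios between −0.16 and 3.23, with a mean of 1.61. The 5 monocyte and macrophage markers summed to 140498 and 132345, nearly all of it Lyz2 (139723 and 131259), with 3 of 5 ratios above 0. Mpeg1 had a log2 ratio of −0.95 or lower (280 and 70.7, the second below the floor), and Adgre1 one of 0.82. Csf1r had a log2 ratio of 1.64 by its strongest probe set. Its 3 measured probe sets lay between −0.48 and 1.64, with a mean of 0.28. The sums for 5 neutrophil markers were 5794 and 7689.8, with all 5 ratios above 0. Of these 5, 3 were measured only through the Smad4 −/− array, which fixes the sign of their ratios. The 5 B cell markers summed to 4069 and 4289, with 3 of 5 ratios above 0. Tek and Emcn, Camp, Elane and Mpo, Pax5, and Cd14, Itgam and Ccr2 lay below the floor on both arrays. RNA quality, read as the 3' to 5' ratio of the Gapdh control probe sets, stood at 1.86 on the Smad4 f/f array and 2.61 on the other, and at 1.16 and 1.27 by beta-actin. The part of these markers and of RNA quality in the ratios of Stat3, Jak2 and the gene lists below was not tested. In RNA of mixed cells, fewer cells of a type and less RNA per cell cannot be told apart.

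Smad4, the deleted gene, acts with other SMAD proteins on DNA, where SMADs bind the short box CAGAC. The sequence just upstream of the annotated start is shown for the members with the largest differences, Jak2 and Stat3, and for the upstream start of Stat5a, which holds the most such boxes among the members. Each run has 250 bases, 5′ to 3′ on the strand of the gene, from RefSeq on build GRCm38.p6. Capitals mark CAGAC or, for the other strand, GTCTG.
Jak2, chr19:29251553-29251802, plus strand: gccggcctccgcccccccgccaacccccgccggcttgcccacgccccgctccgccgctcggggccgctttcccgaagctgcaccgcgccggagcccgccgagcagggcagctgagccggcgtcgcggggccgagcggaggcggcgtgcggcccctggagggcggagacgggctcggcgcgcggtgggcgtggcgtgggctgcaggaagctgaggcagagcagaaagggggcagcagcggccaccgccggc
Stat3, chr11:100939541-100939790, minus strand: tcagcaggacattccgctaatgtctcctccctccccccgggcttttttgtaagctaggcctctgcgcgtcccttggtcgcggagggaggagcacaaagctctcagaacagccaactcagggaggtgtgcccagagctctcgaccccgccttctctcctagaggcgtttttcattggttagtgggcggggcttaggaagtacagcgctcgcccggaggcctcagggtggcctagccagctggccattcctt
Stat5a, chr11:100859406-100859655, plus strand: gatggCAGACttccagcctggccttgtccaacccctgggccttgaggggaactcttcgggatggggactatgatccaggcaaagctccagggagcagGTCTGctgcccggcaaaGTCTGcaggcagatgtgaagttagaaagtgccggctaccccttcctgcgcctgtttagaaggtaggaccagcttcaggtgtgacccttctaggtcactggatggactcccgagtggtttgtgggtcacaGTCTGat

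The Jak2 and Stat3 windows hold 0 matches and the Stat5a window holds 4. The window of the other Stat5a start holds 0, those of Stat5b hold 2 and 0, and that of Tyk2 holds 1. The windows of Cish, Jak1 and Sh2b3 hold 0. Of all 32841 such windows in the table, 42.2% hold at least 1. The STAT motif TTCNNNGAA, which reads the same on both strands, is in 7.02% of all windows, and the 10 windows of the 8 members hold 0, that of the STAT5 target Cish included. The palindrome GTCTAGAC, in 0.167% of all windows, has 0 matches there too. G and C make up 80.8% of the Jak2 window, 60.8% of that of Stat3 and 57.6% of that of Stat5a. The array did not measure binding, and these letters describe only the windows.

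JAK2 is the kinase through which cytokines of the megakaryocyte and red cell lineages signal. Its probe set 1421066_at had a signal of 18349.6 in Smad4 f/f, compared with 11483 in Smad4 −/−, a log2 ratio of −0.68. The second probe set, 1421065_at, read 8755 and 5282, a log2 ratio of −0.73. Both were designed on the same transcript record and their ratios lay 0.05 apart, so they are not independent readings of the mice. Among the 2109 measured probe sets with a mean log2 signal of at least 12, 5% had a ratio below −0.61, and both Jak2 values lay under that. The pooled SD between probe sets of 1 gene in that signal range was 0.22, over 400 genes. That SD is a technical yardstick and holds no spread between animals or arrays.

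JAK1 serves cytokine receptors of the gp130, interferon and common gamma chain families. Its probe set 1433805_at had a signal of 15872 in Smad4 f/f, compared with 15526 in Smad4 −/−, and 1433803_at read 5473 and 5388, log2 ratios of −0.03 and −0.02. The third, 1433804_at, read 2294 and 1528, a log2 ratio of −0.59. All 3 Jak1 probe sets come from the same sequence record and their ratios spread over 0.56 on the log2 scale. The pooled SD between probe sets of 1 gene was 0.34 in the signal range of log2 9 to 12, over 843 genes. Of the Jak1 probe sets only 1433804_at lies there. The others lie at log2 12 or more, where that SD was 0.22. A spread from lowest to highest is not the same measure as an SD. TYK2, which pairs with interferon and interleukin receptors, had a signal of 549 in Smad4 f/f, compared with 439 in Smad4 −/− by 1417306_at, a log2 ratio of −0.32. Its second probe set, 1432576_at, was below the floor in Smad4 f/f (96.7) and just above it in Smad4 −/− (156), so the Tyk2 probe sets differed in direction.

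STAT3 carries signals of gp130 and of other cytokine receptors. Its probe set 1426587_a_at had a signal of 819 in Smad4 f/f, compared with 1796 in Smad4 −/−, a log2 ratio of 1.13. The probe set 1424272_at read 146 and 307, a log2 ratio of 1.07, with the Smad4 f/f value just above the floor of 145. The probe set 1460700_at read 679 and 922, a log2 ratio of 0.44, which is short of 2-fold. The last, 1459961_a_at, read 95.7 and 23.1, below the floor on both arrays, and gives no ratio. The mean log2 ratio of the 3 measured probe sets was 0.88, or 1.84-fold, so the 2-fold call for the gene holds by its strongest probe set and not by their mean. In the range of log2 9 to 12, 95% of 4740 probe sets had a ratio below 0.84, with 1426587_a_at above that value and 1460700_at under it. With the floor at the 75th percentile the ratio of 1424272_at was 0.24.

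STAT5A and STAT5B are close relatives that lie beside each other and Stat3 in the genome and act downstream of JAK2 in megakaryocytes. Stat5b had a signal of 1777 in Smad4 f/f, compared with 1767 in Smad4 −/− by 1422103_a_at, a log2 ratio of −0.01, and 211 and 289 by 1422102_a_at, a log2 ratio of 0.45. Stat5a read 321 and 288 by 1421469_a_at, a log2 ratio of −0.15. The other Stat5a probe set, 1450259_a_at, read 15.4 and 84.6, below the floor on both arrays. Whether the probes tell these near-identical genes apart was not analysed here, so the values of both are uncertain as readings of 1 gene. All 3 measured probe sets of these genes stayed within 2-fold.

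Of the inhibitors, Cish is read by 1 probe set, with a signal of 244 in Smad4 f/f, compared with 229 in Smad4 −/−, a log2 ratio of −0.09. Sh2b3 read 8244 and 9349 by 1433455_at, a log2 ratio of 0.18, and 230 and 289 by 1450183_a_at, a log2 ratio of 0.33. Both Sh2b3 probe sets thus read slightly higher in Smad4 −/−, by 1.13-fold and 1.26-fold, and the Cish probe set slightly lower, by 1.07-fold. The middle 50% of all measured probe sets had ratios from −0.35 to 0.30, so 2 of these 3 lay inside that range. Over 2 arrays any pair of genes correlates at the limit, so no gene is named for a pattern like that of a member.

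**Figure D2:**
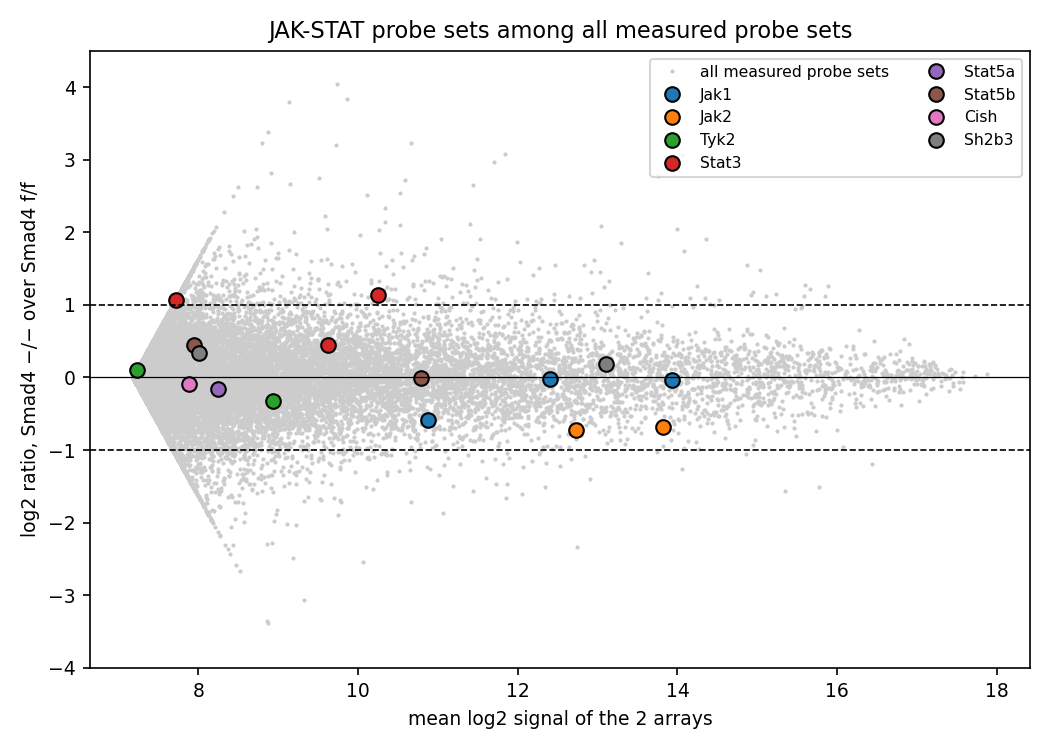
Log2 ratio of Smad4 −/− over Smad4 f/f (y axis) against the mean log2 signal of the 2 arrays (x axis) for the 21377 measured probe sets (grey) and the 16 measured probe sets of the 8 genes (coloured by gene), with dashed lines at 2-fold and values below the floor raised to it. The points of Stat3 at 1.13 and 1.07 lie above the upper line, and those of Jak2 at −0.68 and −0.73 lie under the 5th percentile of −0.61 for probe sets of at least log2 12.

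The rest of the pathway was followed in 5 lists with 110 different genes, of which 78 were measured. Of the listed genes, Il7r and Tfrc are also markers of T cells and of red cell precursors. Each gene took the value of its strongest measured probe set. Among these 78, the Smad4 −/− array showed 3 genes higher by 2-fold or more and 0 lower, 3.85% in all, against 7.14% of all 11380 measured genes (3.44% higher and 3.69% lower). Of the 78, 14 were measured only through the Smad4 −/− array, where they are high, and 3 only through the Smad4 f/f array. Of all 11380 measured genes, 1578 were measured only through Smad4 −/− and 1897 only through Smad4 f/f. The list medians therefore describe the genes that passed and support no shift of a list. The median of all measured genes was −0.02 and that of the 8 members −0.06.

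Of the receptors and ligands that signal through JAKs, 17 of 30 were measured, with 1 at least 2-fold higher and 0 lower. Their median of 0.44 was 0.14 with no floor and 0.16 when probe sets of a gene were averaged. Of the 17, 5 were measured only through the Smad4 −/− array and 2 only through the Smad4 f/f array. Ghr, the growth hormone receptor, read 134 in Smad4 f/f, below the floor, and 324 in Smad4 −/−, at least 2.23-fold higher. Il6ra, the interleukin 6 receptor, read 184 and 334 (log2 ratio 0.86), and Il2rb, a chain of the interleukin 2 receptor, 130 and 259, a log2 ratio of at least 0.83. Ifnar1, a chain of the type I interferon receptor, read 381 and 193, a log2 ratio of −0.98, but −0.01 by its other probe set. All 4 probe sets of Il6st, which encodes gp130 and is named outside the rule after its values were seen, lay below the floor on both arrays. Among the remaining JAKs and STATs, 4 of 5 were measured and 0 passed 2-fold. Stat2 and Stat6 had log2 ratios of 0.43 (a bound, with Smad4 f/f below the floor) and 0.36, Jak3 one of at least 0.36, and Stat4 one of 0.02.

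In the list of inhibitors, which also holds the adaptor genes Sh2b1 and Sh2b2, 17 of 20 were measured, 1 was at least 2-fold higher and 0 were lower. Their median of 0.22 was 0.35 with no floor. Ptpn2, a phosphatase that acts on JAK1, JAK3 and STATs, had a signal of 515 in Smad4 f/f, compared with 1164 in Smad4 −/−, 2.26-fold higher, and its other measured probe set had a log2 ratio of 0.52. Ptpn11, the phosphatase SHP2, read 75945 and 107489.8, a log2 ratio of 0.50, with all 3 probe sets between 0.26 and 0.87. Ptpn11 is listed here as a phosphatase, and the array did not measure whether SHP2 damps or carries the signal. Pias1 had a log2 ratio of 0.57 with probe sets of both signs, and Sh2b1, an activating relative of Sh2b3, one of at least 0.52. The adaptors and kinases that relay cytokine signals to RAS, MAPK and PI3K had 23 of 31 measured, 0 past 2-fold and a median of 0.13, or 0.024 when probe sets of a gene were averaged. The adaptor gene Shc1 had a log2 ratio of 0.78, Pik3cb 0.61 and Rasa1, which switches RAS off, −0.65. Nras had one of 0.66 by its strongest probe set, with its 3 probe sets between −0.33 and 0.66 and a mean of 0.18. Pik3cd read 68580.5 and 57126, a log2 ratio of −0.26, with its probe sets between −0.68 and 1.75.

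Of 24 target genes of STAT5 and STAT3, 17 were measured, 1 was at least 2-fold higher and 0 were lower. Their median was 0.16, or 0.30 with no floor, with 10 ratios above 0 and 7 below. Cdkn1a, a cell cycle inhibitor, read 131 in Smad4 f/f, below the floor, and 390 in Smad4 −/−, at least 2.68-fold higher. Gadd45g read 459 and 911, just short of 2-fold at a log2 ratio of 0.99. The survival kinase gene Pim1 read 462 and 874 (log2 ratio 0.92), but its other probe set gave −0.004. Ccnd1, a cyclin of the G1 phase, was lower by all 3 probe sets, with log2 ratios from −0.89 to −0.68. The targets Myc and Osm lay below the floor on both arrays, as did Socs3 of the inhibitor list.

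**Figure D3:**
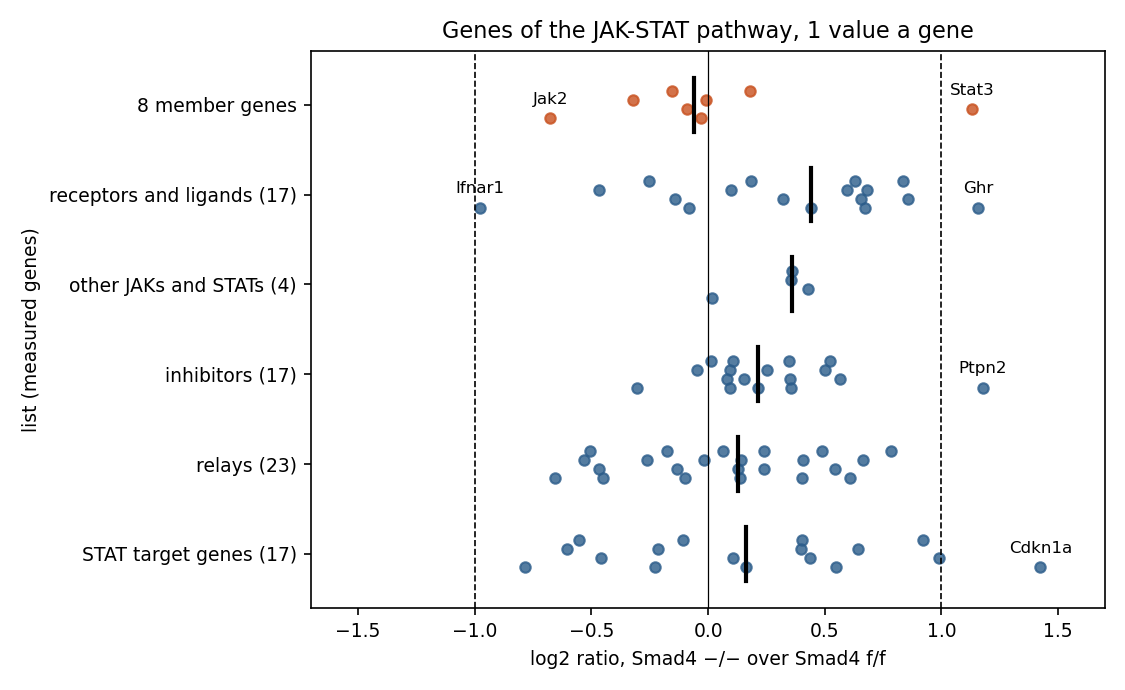
Log2 ratio of Smad4 −/− over Smad4 f/f (x axis, 1 point a gene, values below the floor raised to it) for the 8 members and the 5 lists of the wider pathway (y axis, measured genes in brackets), with a black bar at each median and dashed lines at 2-fold. Stat3, Ghr, Ptpn2 and Cdkn1a lie past the upper line and no gene past the lower one.

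The gene ratios were also computed under 8 other settings of scaling, floor and probe set choice. Jak2 lay between −0.70 and −0.65 and Stat3 between 0.88 and 1.16 in all of them. The ratio of Stat5b, −0.01 as reported, ranged from −0.04 to 0.22, so its sign depends on the setting. The other 5 genes kept their sign in the settings that gave a value. The other floors and the omission of _s_at and _x_at probe sets left every gene ratio they gave as reported. They did not touch the strongest probe set of those genes, so they do not test the ratios. Only the scaling settings and the mean of probe sets could move a gene ratio.

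**Figure D4:**
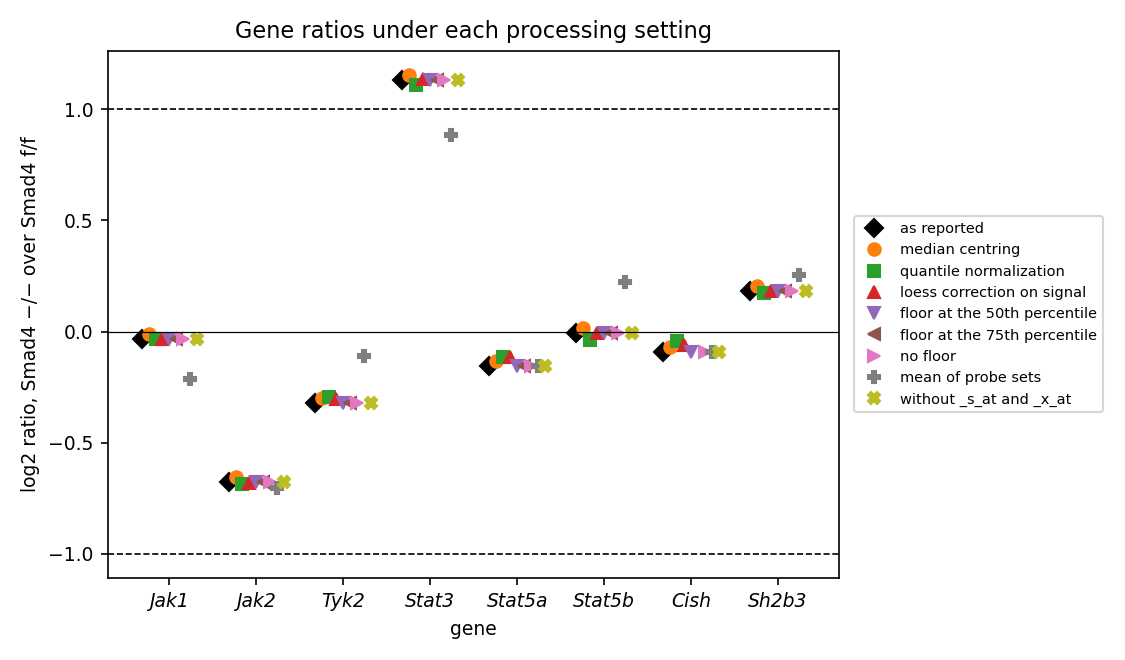
Log2 ratio of Smad4 −/− over Smad4 f/f (y axis) of each of the 8 genes (x axis) as reported (black diamonds) and under 8 other processing settings (other symbols, listed beside the plot), with dashed lines at 2-fold. Stat3 lies past 2-fold except with the mean of its probe sets, at 0.88, and Jak2 stays between −0.70 and −0.65.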

How the data were processed

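Total RNA of washed platelets was turned into biotin-labelled cRNA with a 3' amplification kit, per the labels' protocols. The authors deposited log2 signals, with a value for every probe set on either array. The submitters' processing notes name MAS5, a method of summarising and scaling, without version or setting. With 2% trimmed from both tails, the linear signals of each array average 500.01. The Smad4 f/f array had 18015 of 45037 probe sets (40.0%) at or over the floor, the Smad4 −/− array 17361 (38.5%), and 1 array per group limits the precision.

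Probe sets were named through the platform annotation (34945 with 1 symbol, 932 with several, 9160 with none, 64 controls left out), and 34741 matched a RefSeq gene table of GRCm38.p6 by Entrez ID, with 0 symbols changed. Values stayed as scaled. Signals under the floor (60th percentile, the higher of both arrays) were raised to it, and a ratio with 1 side at the floor is a bound. A gene took its measured probe set of highest average log2 signal, and one ending in _x_at only for want of another. A 2-fold difference is a rule of size, not a test. All 8 members are named, and in each list the 4 measured genes with the largest absolute ratio, plus the 2 strongest where none passed 2-fold. Il6st, Myc, Osm and Socs3 were named after their values were seen, and Itga2b and the other markers only as context. Members and lists were chosen with earlier results of these data known. Alternatives were median centring, quantile normalisation, a loess correction on signal, floors at the 50th and 75th percentile or none, the mean of probe sets, omission of the _s_at and _x_at probe sets, and 1.5-fold and 3-fold. Steps were tested on simulated data, with changes placed only in probe sets of mean log2 signal of at least 9. Recovery of changes at lower signal was not tested. Steps were run with Python 3.11.15, pandas 2.3.3 and statsmodels 0.14.6.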

Additional observations from a re-analysis of the deposited data

How the results depend on the processing

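No paired analysis was possible because each genotype has 1 array, and for the same reason no replicate could be left out. The member probe sets measured were 16 as reported, 14 under a floor at the 75th percentile and 18 with no floor. The number at least 2-fold higher was 2 as reported, 1 under the floor at the 75th percentile, 3 with no floor (the third a Stat5a probe set under the floor on both arrays) and 0 at 3-fold. The number at least 2-fold lower was 0 as reported, 1 with no floor (a Stat3 probe set under the floor on both arrays) and 3 at 1.5-fold. With no floor, 2-fold differences covered 18.3% of all probe sets upward and 20.8% downward. With the floor at the 75th percentile these shares were 2.33% and 2.02%. At 1.5-fold they were 11.4% and 13.3%, and at 3-fold 0.48% and 0.43%. The median over member probe sets lay between −0.04 and 0.01.

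Counts in the lists are small and moved more. They need the background of each setting, the share of all measured genes past the rule either way. That share was 7.14% as reported, 31.9% once the floor was dropped and 5.14% when probe sets were averaged. It was 11.4% for the lower floor (50th percentile), 4.39% for the higher one (75th), 25.6% at 1.5-fold and 0.93% at 3-fold. Dropping the floor also counts every gene with a probe set, 26 receptors and ligands in place of 17. Receptors and ligands had 1 gene at least 2-fold higher as reported, 2 with the floor at the 50th percentile, 3 with no floor, 8 at 1.5-fold and 0 with the 75th percentile, the mean of probe sets or 3-fold. The number lower was 6 with no floor and 1 at 1.5-fold. Their median of 0.44 was 0.31 with the 75th percentile, 0.14 with no floor and 0.16 with the mean of probe sets. The remaining JAKs and STATs had 1 gene higher with no floor. Inhibitors had 2 higher with the 50th percentile, 3 with no floor and 0 with the mean of probe sets or 3-fold, 1 lower with no floor, and a median of 0.35 with no floor. Relays had 3 higher and 1 lower at 1.5-fold and a median of 0.024 with the mean of probe sets. STAT targets had 2 higher with median centring or quantile normalisation, 4 with no floor or at 1.5-fold, 0 with the 75th percentile or 3-fold, 2 lower at 1.5-fold, and a median of 0.30 with no floor. By construction, the looser size rule can only add genes and the stricter one only remove them. For a given probe set, a lower floor can only widen a ratio and a higher floor only narrow it. The cause of the other moves was not tested.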
